A study of Homo sapiens with 21 samples.

Results

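The genes described here are 9 mesenchymal transcription factor genes: SNAI1, SNAI2, TWIST1, TWIST2, ZEB1, ZEB2, PRRX1, FOXC1 and FOXC2. They are a fixed list of names, with no measured value in the rule, but were chosen with earlier results of these data known. They are 9 of the 57820 genes in the count table. All 9 were among the 30549 genes that passed the filter on low counts. RNA-seq was used to follow them in A673, an established Ewing sarcoma cell line whose driver is the fusion protein EWS/FLI, in 21 libraries that fell into 7 groups of 3. Endogenous EWS/FLI was depleted by shRNA and replaced by a cDNA construct (KD/rescue). In the iLuc group the shRNA was against luciferase and the cDNA vector was empty, so that the endogenous fusion was kept, and iLuc relative to iEF is called endo-EF. In the iEF group the shRNA was against the fusion and the cDNA vector was empty. The other 5 groups carried the same shRNA as iEF and a construct: full-length EWS/FLI (WT-EF), a control without the EWS domain (Δ22), full-length fusion with tyrosines of the N-terminal EWS repeats changed to alanine (DAF), fusion with a large internal deletion in EWS (mut9), or tyrosine substitutions within that shortened fusion (DAF-mut9). In every group the shRNA was delivered on day 1 and the cDNA vector on day 5, and cells were kept until day 16 under selection, with puromycin at 2 µg/mL and hygromycin at 400 µg/mL. All groups are therefore selected populations of 1 cell line.

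The SNAIL proteins (SNAI1 and SNAI2) and the ZEB proteins (ZEB1 and ZEB2) are zinc finger factors that bind E-box sequences and repress epithelial genes such as E-cadherin during epithelial-to-mesenchymal transition. The TWIST proteins are basic helix-loop-helix factors that pair with E proteins, whereas PRRX1 is a paired-related homeobox factor and FOXC1 and FOXC2 are forkhead factors of the mesoderm and neural crest mesenchyme. Ewing sarcoma cells have features of both mesenchymal and neural lineages, and EWS/FLI binds GGAA sequences, singly and in repeats, through the ETS domain of FLI1.

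Because EWS/FLI recognizes GGAA, promoter windows of the members were examined for it. PRRX1, FOXC1 and ZEB1 are shown as members with large differences between groups and ZEB2 as one with a small range. RefSeq windows (GRCh38.p14, 250 bases before to 50 bases after the start of a gene) were used for 5 of the 9 genes. These were PRRX1, FOXC1, TWIST2, ZEB2 and ZEB1, with 7 windows at ZEB1. SNAI2 was left out of the search. The windows of PRRX1 (chr1:170663881-170664180, plus strand), FOXC1 (chr6:1609665-1609964, plus strand), the first of ZEB1 (chr10:31318167-31318466, plus strand) and ZEB2 (chr2:144520070-144520369, minus strand) follow, 5′ to 3′ on the strand of the gene. Capitals mark GGAA, or TTCC where it lies on the other strand.
PRRX1: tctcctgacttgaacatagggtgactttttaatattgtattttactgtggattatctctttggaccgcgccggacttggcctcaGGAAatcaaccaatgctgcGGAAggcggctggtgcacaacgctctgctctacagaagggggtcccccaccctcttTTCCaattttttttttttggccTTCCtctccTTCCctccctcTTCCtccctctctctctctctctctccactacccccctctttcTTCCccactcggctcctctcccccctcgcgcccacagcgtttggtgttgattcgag
FOXC1: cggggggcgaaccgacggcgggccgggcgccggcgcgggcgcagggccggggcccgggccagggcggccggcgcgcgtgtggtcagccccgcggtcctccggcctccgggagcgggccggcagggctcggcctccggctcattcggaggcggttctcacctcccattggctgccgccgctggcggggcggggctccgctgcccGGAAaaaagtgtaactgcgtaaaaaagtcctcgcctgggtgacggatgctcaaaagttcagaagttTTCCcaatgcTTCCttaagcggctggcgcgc
ZEB1: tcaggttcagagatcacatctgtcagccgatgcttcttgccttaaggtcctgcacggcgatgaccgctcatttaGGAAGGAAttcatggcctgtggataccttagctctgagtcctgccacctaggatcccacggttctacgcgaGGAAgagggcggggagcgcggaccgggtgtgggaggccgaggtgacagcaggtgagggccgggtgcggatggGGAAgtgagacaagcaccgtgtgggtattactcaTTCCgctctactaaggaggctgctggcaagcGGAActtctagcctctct
ZEB2: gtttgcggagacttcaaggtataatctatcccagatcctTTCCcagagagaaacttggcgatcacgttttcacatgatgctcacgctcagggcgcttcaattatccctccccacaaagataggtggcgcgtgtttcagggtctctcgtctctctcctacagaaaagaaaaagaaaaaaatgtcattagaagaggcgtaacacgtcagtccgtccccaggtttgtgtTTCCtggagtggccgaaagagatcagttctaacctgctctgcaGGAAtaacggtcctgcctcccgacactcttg
The PRRX1 window held 7 matches to GGAA, of which 5 lay on the other strand within 91 bases upstream of the start. There were 3 matches at FOXC1, at ZEB2 and at TWIST2, and 3 to 6 in each of the 7 windows of ZEB1. The motif is short, and 95.5% of all 35116 windows held at least 1 match, with a median of 3. Searched on both strands, the tandem GGAAGGAA, which contains GGAA at both ends and was held by 3.67% of all windows, was found in the first ZEB1 window, 176 bases upstream. The ETS sequence CCGGAAGT, which also contains GGAA and was held by 4.14% of all windows, was found in none of the members' windows that were searched. The E-box CACCTG, a sequence that SNAIL and ZEB proteins bind, was held by 20.6% of all windows. Among the 5 genes searched it was found at ZEB1 alone, with 1 match in the first window and 3 in the third. The shares are per window, and ZEB1 had 7 windows where each other gene searched had 1. These matches describe the windows and do not show binding.

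The knockdown was checked first. FLI1, whose exons form the end of the fusion transcript, stood at 20.8, 20.02 and 21.1 CPM (counts scaled to a library of 1 M counts after TMM adjustment) in iEF and at 61.3, 60.6 and 89.0 CPM in iLuc. On the log2 scale it was 1.75 ± 0.14 (SE) higher in iLuc, at an adjusted p-value of 1.33e-09. All adjusted p-values are from the quasi-likelihood test of edgeR, corrected over all genes tested after Benjamini and Hochberg. In the rescued groups mean FLI1 ran from 24.5 CPM with WT-EF to 49.5 CPM with Δ22. With WT-EF it was not significant over iEF, and FLI1 transcript levels were not equal among the rescued groups. In the paper the shRNA targets the untranslated region at the end of the fusion transcript, and the tagged constructs are shown by Western blot. Construct cDNA need not hold that region, so FLI1 counts may understate constructs against the endogenous fusion. Library totals ranged from 32.9 to 46.2 M counts. Of 6 Ewing sarcoma genes NR0B1, NKX2-2, STEAP1, PAPPA and CCND1 were higher in iLuc than in iEF, but CD99, a surface marker of this tumor, had at most 8 counts in any library. CD99 lies in the pseudoautosomal region shared by the X and Y chromosomes, and whether its reads were lost in counting was not tested. Markers of other cells (PTPRC and CD3E of blood, KRT5 of squamous epithelium, ALB of liver and CDH5 of endothelium) had group means of at most 0.775 CPM, and none of the 4 that could be tested changed in endo-EF. In such bulk samples fewer cells that express a gene and less RNA per cell cannot be told apart.

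Depletion of EWS/FLI was accompanied by higher levels of most of the 9 genes. In endo-EF, SNAI1, SNAI2, TWIST2, ZEB1, PRRX1, FOXC1 and FOXC2 were lower (7 of 9), TWIST1 was higher (1 of 9) and ZEB2 was not significant, where 22.4% of all genes tested were lower and 18.7% were higher. The median log2 fold change of the 9 genes was -2.65 when TWIST2, which had 0 counts in iLuc, was set to its bound, and -4.06 as fitted, against 0.0061 for all genes tested. WT-EF lowered 5 of the 9 genes relative to iEF (SNAI2, ZEB1, PRRX1, FOXC1 and FOXC2) and raised TWIST1 and ZEB2, against 16.9% lower and 11.4% higher of all genes. With mut9 SNAI2, ZEB1, PRRX1, FOXC1 and FOXC2 fell and ZEB2 rose, against 8.33% lower and 6.22% higher of all genes. With DAF none of the 9 was lower, against 4.02% of all genes, whereas SNAI1 and ZEB2 were higher, against 3.41%. When no filter on low counts was applied, SNAI2 (-0.84, adjusted p-value 4.31e-06), ZEB1 (-0.45, 0.0185) and PRRX1 (-0.39, 0.0276) were called lower with DAF, and SNAI2 (-0.62, 0.00300) with Δ22. None of the 9 was called with DAF-mut9, where 1.26% of all genes were higher and 2.14% lower and 4544 of the 30549 genes had an unadjusted p-value below 0.05. None was called with Δ22, where 0.881% were higher and 1.79% lower and 4276 genes had an unadjusted p-value below 0.05. These 6 comparisons share the 3 iEF libraries and are not independent of each other.

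**Figure D1:**
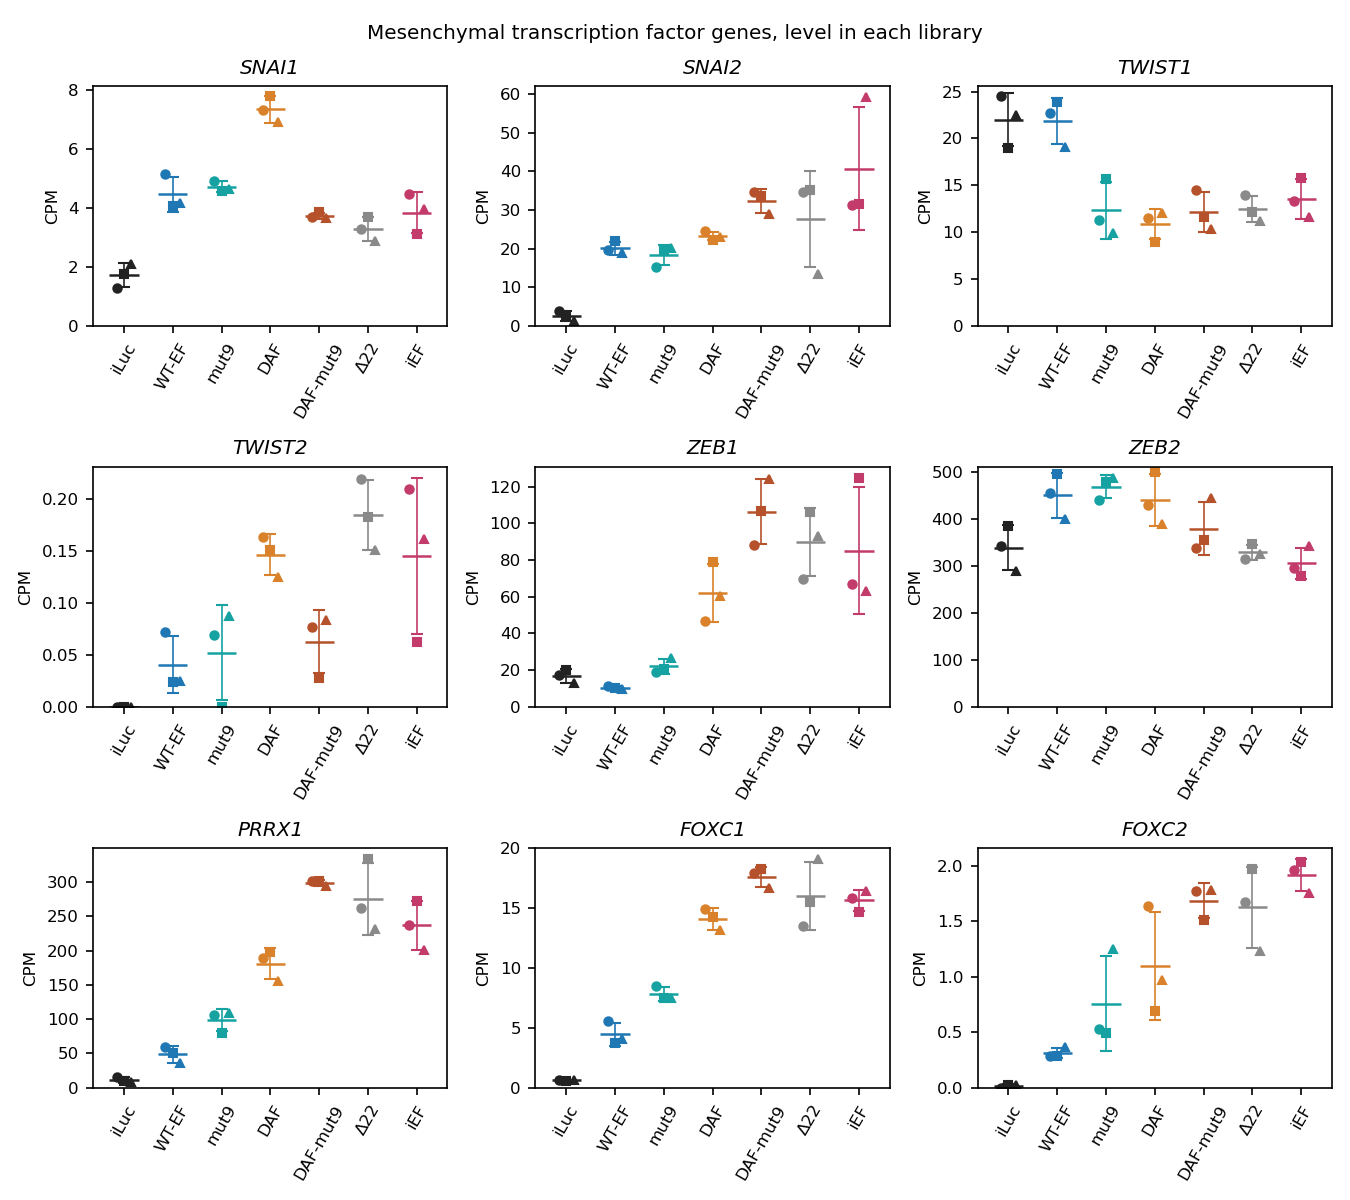
Level of each gene in CPM (linear axes from 0) in the 7 groups. Circles, squares and triangles are the libraries of replicate sets 1, 2 and 3, and the horizontal line and bar are the mean ± SD of 3 libraries. PRRX1, FOXC1 and FOXC2 are lowest in iLuc and step up through WT-EF and mut9, SNAI1 is highest with DAF at 7.34 CPM, and TWIST1 stands near 22 CPM in iLuc and WT-EF only.

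**Figure D2:**
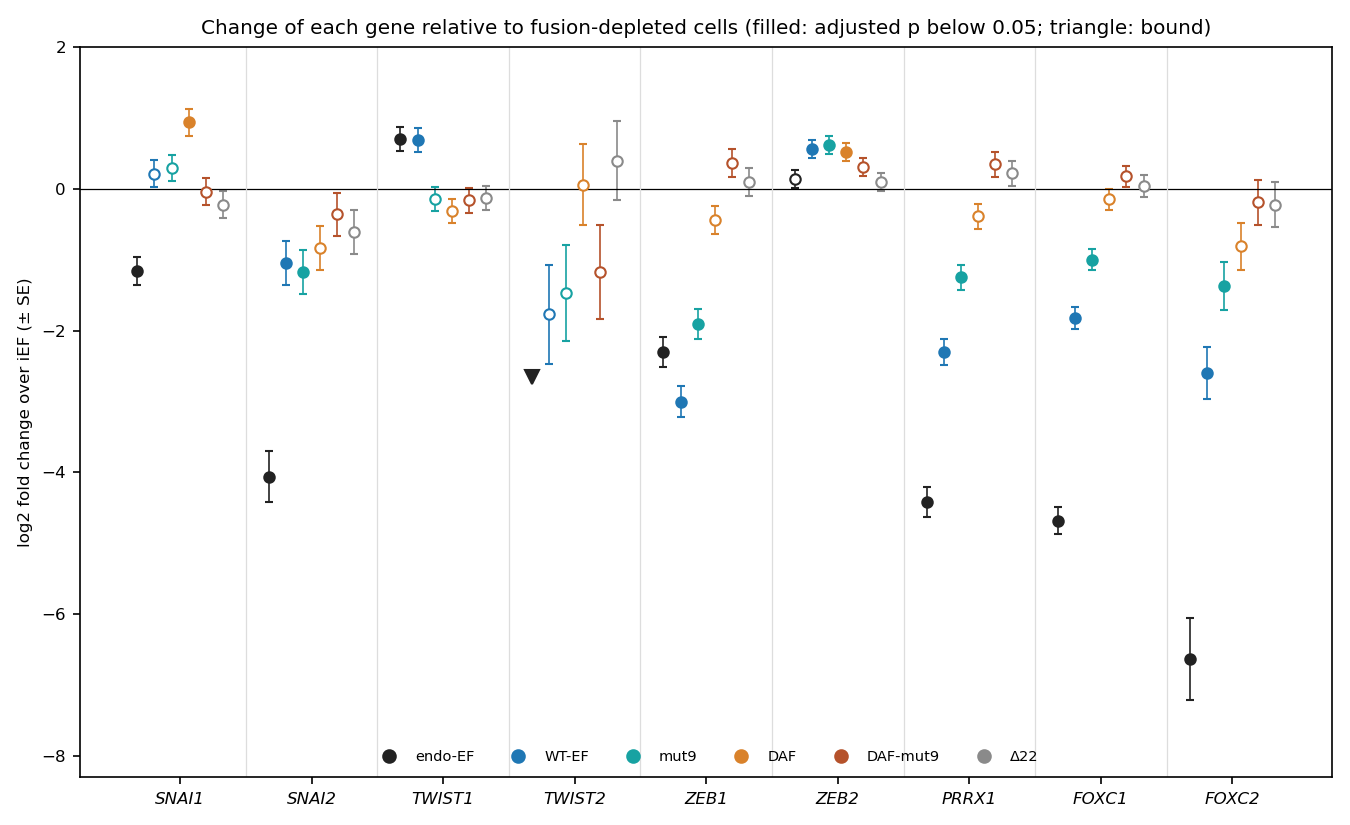
Log2 fold change over iEF with its SE for each gene in endo-EF and the 5 rescued groups. Filled points passed the adjusted p-value of 0.05 and open points did not. The triangle is the value of -2.65 for TWIST2, which had 0 counts in iLuc, with iLuc set at 3 counts. Only TWIST1 is raised in endo-EF, and ZEB2 is raised with WT-EF, mut9 and DAF.

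The group means of PRRX1, FOXC1 and FOXC2 rose from iLuc through WT-EF, mut9 and DAF to iEF, though not every step was significant. PRRX1 (chromosome 1, 170631869 to 170708562, GRCh37), a homeobox factor of limb and craniofacial mesenchyme, stood at 238, 272 and 201 CPM in iEF and at 15.8, 10.1 and 7.89 CPM in iLuc. Its libraries stood at 59.8, 51.2 and 35.4 CPM with WT-EF, at 106, 80.4 and 109 CPM with mut9, and at 190, 197 and 156 CPM with DAF. From iLuc through WT-EF, mut9 and DAF to iEF, each group lay above the one before with no overlap between libraries. In Δ22 it was at 262, 334 and 231 CPM, overlapping iEF, and with DAF-mut9 it was at 301, 302 and 294 CPM. The DAF-mut9 libraries lay above all 3 iEF libraries, but the difference was not significant (log2 fold change 0.35 ± 0.18, adjusted p-value 0.374). PRRX1 fell by 4.42 on the log2 scale in endo-EF (SE 0.21, adjusted p-value 1.05e-12), and its values were -2.30 ± 0.19 with WT-EF (1.03e-08) and -1.25 ± 0.18 with mut9 (4.41e-05). Its value with DAF was -0.39 ± 0.18 with an adjusted p-value of 0.228.

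FOXC1 (chromosome 6, 1610150 to 1614132, GRCh37), a forkhead factor whose gene has 1 exon, stood at 15.8, 14.7 and 16.4 CPM in iEF and at 0.668, 0.530 and 0.626 CPM in iLuc. WT-EF brought it to 5.57, 3.73 and 4.03 CPM and mut9 to 8.46, 7.51 and 7.50 CPM, and neither group overlapped the other, iLuc or iEF. With DAF it was at 14.9, 14.2 and 13.1 CPM and overlapped the lower edge of iEF (log2 fold change -0.15 ± 0.15, adjusted p-value 0.675). The Δ22 libraries (13.5, 15.5 and 19.1 CPM) spanned the iEF range. The 3 DAF-mut9 libraries, at 17.9, 18.2 and 16.7 CPM, were above those of iEF without a significant difference (log2 fold change 0.17 ± 0.15, adjusted p-value 0.670). FOXC1 fell by 4.68 (SE 0.19, adjusted p-value 1.92e-13) in endo-EF. Its value with WT-EF was -1.82 ± 0.16 (2.61e-08), and its value with mut9 was -0.998 ± 0.15 (8.68e-05).

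FOXC2 (chromosome 16, 86600435 to 86603334, GRCh37), a forkhead factor of lymphatic and mesenchymal development, was measured at a lower level. It had 0, 1 and 1 counts in iLuc against 84, 65 and 65 counts (1.96, 2.03 and 1.76 CPM) in iEF. From the pooled counts the level in iEF was 119-fold that in iLuc with a 95% exact binomial interval of 32.5 to 987, which covers counting error only. It was at 0.288, 0.290 and 0.368 CPM with WT-EF, a fall of 2.60 on the log2 scale (SE 0.37, adjusted p-value 1.57e-05). With mut9 it was at 0.532, 0.491 and 1.25 CPM, which differed from iEF by -1.37 ± 0.34 on the log2 scale (adjusted p-value 0.00771). That call was lost without mut9 replicate 1 (-1.12, adjusted p-value 0.0665) or mut9 replicate 2 (-1.16, 0.0678). The DAF libraries (1.64, 0.693 and 0.969 CPM) were scattered and lay below the iEF range, with an adjusted p-value of 0.166. They overlapped the mut9 libraries, and mut9 did not differ significantly from DAF (log2 fold change -0.57 ± 0.35, adjusted p-value 0.420). With DAF-mut9 it was at 1.77, 1.51 and 1.79 CPM and in Δ22 at 1.67, 1.97 and 1.24 CPM, and both overlapped iEF. Exons of FOXC2 share 231 bases with FOXC2-AS1 on the opposite strand, and its counts are therefore uncertain.

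Of the SNAIL genes, SNAI2 (SLUG, a repressor active in neural crest cells; chromosome 8, 49830157 to 49834299, GRCh37) had the larger range. It stood at 31.4, 31.6 and 59.3 CPM in iEF and at 3.83, 2.45 and 1.30 CPM in iLuc, and fell by 4.06 on the log2 scale in endo-EF (SE 0.36, adjusted p-value 9.76e-09). In the rescued groups it was at 19.6, 22.01 and 18.7 CPM with WT-EF, 15.3, 19.5 and 20.1 CPM with mut9 and 24.5, 22.3 and 23.1 CPM with DAF. These 3 groups lay between iLuc and iEF without overlapping either. The decrease was significant with WT-EF (log2 fold change -1.05 ± 0.31, adjusted p-value 0.0141) and mut9 (-1.18 ± 0.31, 0.0123) and was not with DAF (-0.83 ± 0.31, 0.118). One iEF library weighed on this: without iEF replicate 3 the values were -0.53 (adjusted p-value 0.205) for WT-EF and -0.65 (0.178) for mut9. The WT-EF call was also lost without WT-EF replicate 1 (-0.97, 0.0622) or replicate 3 (-1.04, 0.0562), and the mut9 call without mut9 replicate 1 (-1.02, 0.0702). With DAF-mut9 it was at 34.8, 33.6 and 28.9 CPM and overlapped iEF. In Δ22, replicate 3 stood at 13.4 CPM against 34.7 and 35.2 CPM for the others. Exons of SNAI2 share 121 bases with a transcript on the opposite strand.

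SNAI1 (SNAIL, chromosome 20, 48599517 to 48605423, GRCh37), the founding repressor of E-cadherin, behaved otherwise. It was at 4.46, 3.10 and 3.94 CPM in iEF and at 1.28, 1.77 and 2.08 CPM in iLuc, lower in endo-EF on the log2 scale (-1.16 ± 0.20, adjusted p-value 5.66e-05). With WT-EF it was at 5.14, 4.06 and 4.18 CPM, overlapping iEF (log2 fold change 0.22 ± 0.19, adjusted p-value 0.439), and with mut9 at 4.92, 4.57 and 4.65 CPM (0.30 ± 0.19, 0.351). The highest level was found with DAF, at 7.31, 7.81 and 6.91 CPM, above every other library of the series. This was an increase over iEF of 0.94 ± 0.19 on the log2 scale (adjusted p-value 0.00296). With DAF-mut9, at 3.70, 3.84 and 3.66 CPM, and Δ22, at 3.29, 3.69 and 2.88 CPM, SNAI1 lay in or next to the iEF range. SNAI1 had 99 to 268 counts in each library outside iLuc.

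The ZEB genes differed from each other. ZEB1 (chromosome 10, 31607424 to 31818742, GRCh37), a repressor that forms a feedback loop with the miR-200 family, stood at 66.7, 125 and 63.3 CPM in iEF and at 17.5, 20.2 and 12.9 CPM in iLuc. With WT-EF it was at 11.2, 9.94 and 9.58 CPM, below all 3 iLuc libraries. It fell by 2.30 on the log2 scale in endo-EF (SE 0.21, adjusted p-value 1.75e-08) and stood at -3.00 ± 0.22 with WT-EF (2.92e-09). With mut9 it was at 19.0, 20.5 and 26.3 CPM, a fall of 1.91 (SE 0.21, adjusted p-value 1.67e-06), overlapping iLuc. The DAF libraries (46.9, 78.7 and 60.2 CPM) overlapped iEF with an adjusted p-value of 0.225, and Δ22 (69.7, 106 and 93.3 CPM) and DAF-mut9 (88.3, 107 and 124 CPM) did so too. Exons of ZEB1 share 396 bases with ZEB1-AS1 on the opposite strand, which fell with WT-EF by 1.60 on the log2 scale (adjusted p-value 0.0135) and had a value of 0.90 in endo-EF (0.0794).

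ZEB2 (chromosome 2, 145121931 to 145278624, GRCh37), a partner of SMAD proteins that is required in neural crest, was at 297, 278 and 342 CPM in iEF and at 344, 385 and 288 CPM in iLuc. The groups overlapped and the difference was not significant (log2 fold change 0.14 ± 0.13, adjusted p-value 0.404). With WT-EF it reached 456, 496 and 400 CPM, with mut9 441, 480 and 487 CPM and with DAF 430, 500 and 391 CPM, each above all iEF and iLuc libraries. The increase over iEF was 0.56 ± 0.13 (adjusted p-value 0.00218) with WT-EF, 0.61 ± 0.13 (0.00189) with mut9 and 0.52 ± 0.13 (0.0140) with DAF. The DAF call was lost without iEF replicate 2 (0.41, adjusted p-value 0.0850), DAF replicate 1 (0.51, 0.0584) or DAF replicate 2 (0.44, 0.0843), and when only the compared groups were fitted (0.52, 0.0812). In Δ22 (315, 347 and 325 CPM) and DAF-mut9 (339, 356 and 444 CPM) ZEB2 did not differ significantly from iEF. Of its exon bases 2966 are shared with AC009951.1 on the same strand and 1299 with ZEB2-AS1 on the opposite strand, so part of its count is uncertain.

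TWIST1 (chromosome 7, 19060614 to 19157259, GRCh37), a factor of cranial mesenchyme, was the only member raised in endo-EF. It was at 13.3, 15.8 and 11.6 CPM in iEF, 24.5, 19.0 and 22.5 CPM in iLuc and 22.7, 23.9 and 19.1 CPM with WT-EF. The increase was 0.71 ± 0.17 (adjusted p-value 0.00200) in endo-EF and 0.69 ± 0.17 (0.00376) with WT-EF. All other groups overlapped the iEF range, with 9.89 to 15.7 CPM for mut9, 8.98 to 12.0 CPM for DAF, 10.3 to 14.5 CPM for DAF-mut9 and 11.2 to 13.9 CPM for Δ22. With mut9, which lowered PRRX1, FOXC1, FOXC2, SNAI2 and ZEB1, the value for TWIST1 was -0.14 ± 0.17 with an adjusted p-value of 0.683. Exons of TWIST1 share 141 bases with a transcript on the opposite strand.

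TWIST2 (DERMO1, chromosome 2, 239756673 to 239832230, GRCh37), a factor of the dermis, was near the detection limit. It had 0 counts in all 3 iLuc libraries, 9, 2 and 6 counts in iEF, and 0 to 8 counts in each library of the rescued groups. With iLuc set at 3 counts over the group, the pooled level was 6.29-fold that of iLuc in iEF, 7.60-fold in Δ22 and 6.10-fold with DAF. With WT-EF (5 counts in all) and mut9 (6 counts in all) it was 1.67-fold and 2.10-fold. These folds leave out the counting error of the group set against iLuc, so they are not lower limits. TWIST2 was lower in endo-EF at an adjusted p-value of 0.000548, and it passed the test relative to iEF with no construct, with an adjusted p-value of 0.0665 for WT-EF, which became 0.0463 without mut9 replicate 2. Without that library TWIST2 was also called in WT-EF over iLuc (adjusted p-value 0.0488, from 0.0575) and in DAF over WT-EF (0.0486, from 0.0671).

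Direct comparison of WT-EF with iLuc asked how far the exogenous fusion returned these genes to their endogenous levels. FLI1 counts were lower with WT-EF than in iLuc (log2 fold change -1.51 ± 0.13, adjusted p-value 7.36e-08), and their part in the differences was not tested. Endogenous and construct transcripts may differ in untranslated FLI1 bases, so this value need not give the difference in fusion level. SNAI1, SNAI2, ZEB2, PRRX1, FOXC1 and FOXC2 were higher with WT-EF (6 of 9) and ZEB1 was lower (1 of 9), where 9.78% of all genes were higher and 8.52% were lower. The differences reached 3.01 ± 0.35 (adjusted p-value 2.24e-06) for SNAI2, 2.86 ± 0.19 (1.31e-09) for FOXC1 and 2.12 ± 0.19 (7.57e-08) for PRRX1. SNAI1 was higher with WT-EF by 1.37 ± 0.19 (adjusted p-value 3.00e-05). From pooled counts FOXC2 was 19.6-fold higher with WT-EF (95% exact binomial interval 5.07 to 167). TWIST1 was at -0.02 ± 0.17 (adjusted p-value 0.983), although its direction turned in several alternatives. The ZEB1 value was -0.70 ± 0.21 (adjusted p-value 0.0215), and the call was lost without iLuc replicate 1 (-0.51, 0.169), iLuc replicate 2 (-0.65, 0.0814), WT-EF replicate 2 (-0.54, 0.152) or WT-EF replicate 3 (-0.63, 0.101) and on the ComBat-adjusted values (-0.50, 0.0801). The ZEB2 value was 0.41 ± 0.13 (adjusted p-value 0.0272), and the call was lost without iLuc replicate 3 (0.30, 0.117), WT-EF replicate 1 (0.39, 0.0944) or WT-EF replicate 2 (0.39, 0.0939).

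The internal deletion was examined by comparing mut9 with WT-EF. ZEB1 (log2 fold change 1.09 ± 0.21, adjusted p-value 0.00258), PRRX1 (1.05 ± 0.18, 0.000970) and FOXC1 (0.82 ± 0.16, 0.00240) were higher with mut9 and TWIST1 was lower (-0.83 ± 0.17, 0.00426). This was 3 of 9 higher and 1 of 9 lower, against 4.95% and 1.2% of all genes. FOXC2 was not called (1.22 ± 0.39, adjusted p-value 0.0704), but passed with DESeq2 (0.0356), without a low-count filter (0.0203), with only the compared groups (0.0171) and without mut9 replicate 2 (1.44, 0.0474), whereas FOXC1 missed the threshold on the ComBat-adjusted values (0.57, 0.0864). The SNAI1, SNAI2 and ZEB2 values were 0.08, -0.13 and 0.06, and none was significant.

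The tyrosine substitutions were examined in both lengths of the fusion. In the full-length form (DAF against WT-EF) SNAI1, ZEB1, PRRX1, FOXC1 and FOXC2 were higher (5 of 9) and TWIST1 was lower (1 of 9), against 14.3% higher and 10.6% lower of all genes. ZEB1 differed most, by 2.56 ± 0.22 (adjusted p-value 3.64e-08), followed by PRRX1 (1.91 ± 0.18, 1.82e-07), FOXC2 (1.79 ± 0.38, 0.00139) and FOXC1 (1.67 ± 0.16, 1.44e-07). TWIST1 was lower with DAF (-1.001 ± 0.17, adjusted p-value 0.000156), and SNAI1 was higher by 0.72 ± 0.18 (0.00581). FLI1 counts were also higher with DAF than with WT-EF (0.60 ± 0.13, adjusted p-value 0.00173), and their part in these differences was not tested. In the shortened form (DAF-mut9 against mut9) ZEB1 (2.27 ± 0.21, 3.06e-07), PRRX1 (1.59 ± 0.18, 3.61e-06), FOXC1 (1.17 ± 0.15, 2.03e-05) and FOXC2 (1.19 ± 0.34, 0.0285) were higher, and none was lower, against 5.15% higher and 4.68% lower of all genes. Here TWIST1 was at -0.02 ± 0.17 (adjusted p-value 0.969) and SNAI1 at -0.34 ± 0.19 (0.330). The direction of this TWIST1 value turned with RLE normalization. SNAI2 (0.81 ± 0.31, 0.112) was called without iEF replicate 3 (0.82, 0.0395) or Δ22 replicate 3 (0.83, 0.0433), and also without a low-count filter (0.81, 8.72e-06) and with only the compared groups (0.85, 0.000143). ZEB2 (-0.30 ± 0.13, 0.159) was called without DAF-mut9 replicate 3 (-0.46, 0.0377), on the ComBat-adjusted values (-0.35, 0.0320) and with only the compared groups (-0.30, 0.0281). The FOXC2 call in the shortened form was lost without mut9 replicate 1 (0.94, 0.175) or mut9 replicate 2 (0.98, 0.176), and without DAF-mut9 replicate 1 (1.17, 0.0837), replicate 2 (1.203, 0.0776) or replicate 3 (1.18, 0.0881).

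The interaction term tested whether DAF-mut9 over mut9 differed from DAF over WT-EF. In the paper DAF leaves part of the EWS tyrosines unchanged, whereas DAF-mut9 replaces every repeat tyrosine that mut9 holds. Fusion length and the set of tyrosines changed therefore cannot be told apart by this term. Of all genes 0.504% had a positive and 2.82% a negative interaction. Among the 9 genes SNAI1 had a negative one (-1.06 ± 0.26, adjusted p-value 0.0262) and TWIST1 a positive one (0.98 ± 0.24, 0.0259). SNAI1 was negative in all 3 replicate sets, at -0.91, -1.18 and -1.06, and TWIST1 was positive in all 3, at 1.33, 0.96 and 0.72. Each call was lost without some single libraries. The SNAI1 call was lost without any 1 of WT-EF replicates 2 and 3, DAF replicates 1 and 2, mut9 replicates 1 and 3 and the 3 DAF-mut9 libraries, where values ran from -1.09 to -0.95 and adjusted p-values from 0.0528 to 0.123. The TWIST1 call was lost without WT-EF replicate 2, DAF replicate 1 or 2, mut9 replicate 1 or 3, or DAF-mut9 replicate 1, with values of 0.83 to 0.97 and adjusted p-values of 0.0616 to 0.108. For ZEB1, PRRX1, FOXC1 and FOXC2 the interaction was -0.29, -0.31, -0.50 and -0.60, and none was significant.

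The partially active constructs were also set against each other and DAF against the control. ZEB1 (-1.47 ± 0.21, adjusted p-value 0.000129), PRRX1 (-0.86 ± 0.18, 0.00443), FOXC1 (-0.85 ± 0.15, 0.00141) and SNAI1 (-0.64 ± 0.18, 0.0395) were lower with mut9 than with DAF, 4 of 9 against 3.48% of all genes, and none was higher, against 3.13%. The SNAI1 call was lost when any 1 of the DAF, mut9 or first 2 DAF-mut9 libraries was left out (-0.69 to -0.58, adjusted p-values 0.0516 to 0.181), without a low-count filter (-0.65, 0.0619) and with only the compared groups (-0.64, 0.0558), and the PRRX1 call without mut9 replicate 2 (-0.69, 0.0514). Against Δ22, DAF raised SNAI1 by 1.16 ± 0.19 (adjusted p-value 0.00158), 1 of 9 against 0.789% of all genes, and none was lower, against 0.183%. Other members had values from -0.61 ± 0.18 for PRRX1 (adjusted p-value 0.150) to 0.42 ± 0.13 for ZEB2 (0.185). When only the DAF and Δ22 libraries were fitted, PRRX1, ZEB1 and ZEB2 were called as well, at adjusted p-values of 0.00422, 0.00787 and 0.0476.

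Levels of different genes were compared per kb of transcript. Lengths came from a GENCODE annotation, which need not be the release used for counting, so these levels are approximate. Per kb of the canonical transcript PRRX1 ranked first in iEF at 58.3 ± 8.77 CPM per kb (SD, n = 3), in Δ22 at 67.9 ± 12.9 and with DAF-mut9 at 73.6 ± 1.10. ZEB2 ranked first in iLuc at 36.6 ± 5.21, with WT-EF at 48.6 ± 5.23 and with mut9 at 50.6 ± 2.69 CPM per kb. With DAF the levels of ZEB2 (47.5 ± 5.97) and PRRX1 (44.6 ± 5.48) lay within their spread, and their order turned when lengths were taken over all annotated exons. TWIST1 ranked second in iLuc (13.5 ± 1.72) and WT-EF (13.4 ± 1.53), where in iLuc it was the only member besides ZEB2 above 3 CPM per kb. FOXC2 ranked 8 and TWIST2 ranked 9 in every group. With union lengths the first rank was the same gene in the other 6 groups, but other ranks depended on the length used, most often that of SNAI2, which changed in 5 groups.

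**Figure D3:**
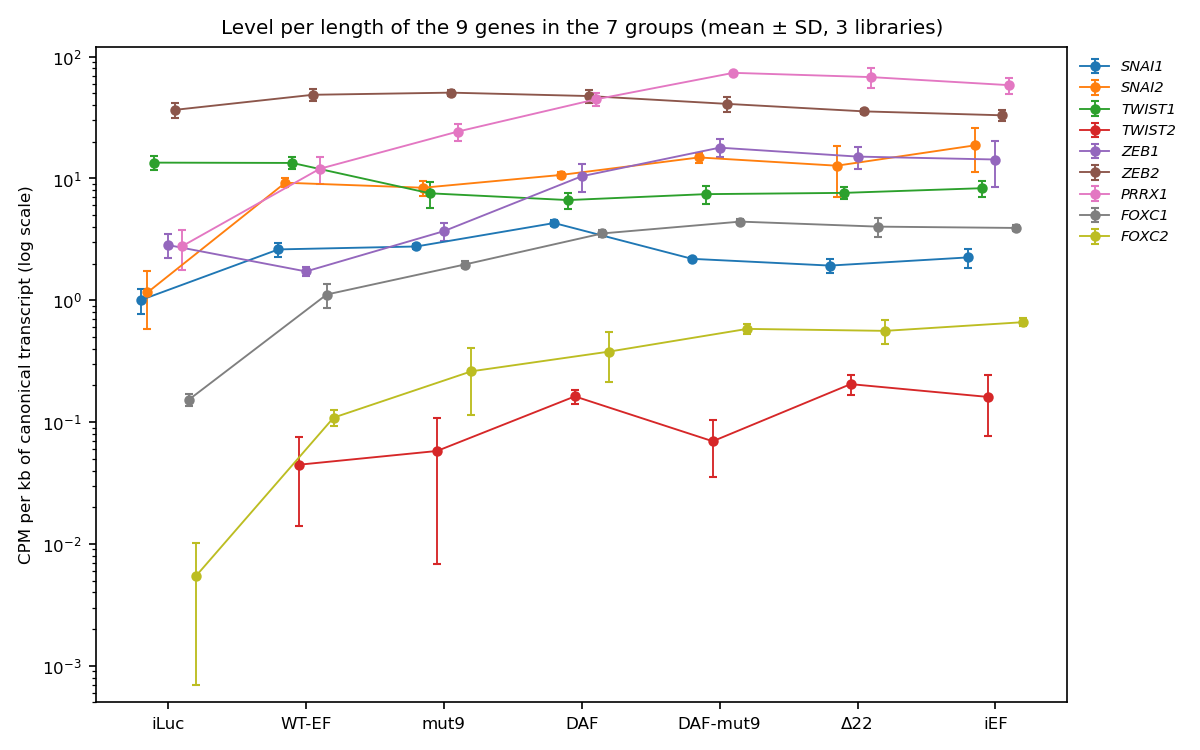
CPM per kb of canonical transcript on a log scale, mean ± SD of 3 libraries, with lines that join the values of 1 gene across the 7 groups, which have no order of their own. TWIST2 in iLuc, at 0, is not drawn. The line of PRRX1 crosses that of ZEB2, from 2.77 CPM per kb in iLuc to 58.3 in iEF.

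Proteins that work with these factors were listed by role. The counts of these and the following lists stand beside 18.7% higher and 22.4% lower of all genes in endo-EF, 11.4% and 16.9% with WT-EF, 6.22% and 8.33% with mut9 and 3.41% and 4.02% with DAF. Of the 7 TWIST partners and inhibitors 5 were higher and 2 were lower in endo-EF, with a median log2 fold change of 0.50. TCF12, an E protein that pairs with TWIST, rose by 1.16 ± 0.12 (adjusted p-value 1.45e-07). Among the ID proteins, which sequester E proteins, ID2 rose by 2.06 ± 0.26 (1.37e-06) and ID4 by 1.15 ± 0.19 (3.43e-05), whereas ID3 (-1.01 ± 0.24, 0.00185) and ID1 (-0.80 ± 0.16, 0.000399) fell. With WT-EF 5 of the 7 were higher, TCF12 by 1.28 and ID2 by 1.13, and none was lower. Of 16 corepressors and regulators of SNAIL and ZEB proteins 6 were higher, 6 were lower and 4 were not called in endo-EF (median -0.04), with RCOR1, a scaffold of the demethylase KDM1A, at 1.40 ± 0.16 and WTIP, an AJUBA family protein, at -1.30 ± 0.15. With WT-EF 1 was higher and 3 were lower, and neither RCOR1 (0.28, adjusted p-value 0.193) nor WTIP (-0.37, 0.0619) was called.

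Relatives of the 9 genes and other factors of mesenchymal cells moved in both directions. Of 15 relatives listed, 13 were in the table and 10 were tested, of which 5 were lower, 2 were higher and 3 were not called in endo-EF (median -1.46). FOXL1, a forkhead gene that lies next to FOXC2 on chromosome 16, fell by 5.09 (SE 0.41, adjusted p-value 2.68e-09), and its values were -3.19 with WT-EF (8.20e-07) and -1.997 with mut9 (0.000292). The higher genes both encode basic helix-loop-helix factors, HAND2 by 2.08 ± 0.22 (1.72e-07) and MSC by 1.005 ± 0.18 (9.47e-05), and PRRX2 was lower by -0.53 ± 0.20 (0.0406). HAND2 rose with WT-EF by 2.09 (4.39e-07), with mut9 by 1.43 (0.000104) and with DAF by 0.87 (0.0186), whereas MSC fell with WT-EF (-0.52, 0.0327). Of 15 other mesenchymal transcription factors tested 7 were lower, 2 were higher and 6 were not called (median -1.35). RUNX2 (-1.66 ± 0.24) and MSX1 (-1.35 ± 0.19) fell, and the homeobox genes ALX4 and ALX1 rose by 2.52 ± 0.19 and 1.73 ± 0.16. ALX4 rose with each of WT-EF (2.86), mut9 (2.11) and DAF (1.17).

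Genes that mark the mesenchymal state, and epithelial genes that these factors are known to repress, were described in the same way. Of 20 mesenchymal markers 15 were lower in endo-EF, 2 were higher and 3 were not called, with a median of -2.27. The receptor gene PDGFRA fell by 7.50 (SE 0.42). The hyaluronan receptor CD44 had a value of -7.12 ± 0.31 and NT5E, which encodes CD73, of -5.57 ± 0.21, whereas CDH11, a cadherin of mesenchyme, rose by 0.58 ± 0.12 (adjusted p-value 0.000537). WT-EF lowered 11 and raised 1, and mut9 lowered 7 and raised 2. With DAF 7 were higher and 3 were lower, and CDH11 rose by 1.02 (adjusted p-value 1.70e-05). With DAF-mut9 4 were higher and 1 was lower, against 1.26% and 2.14% of all genes. With Δ22 4 were higher and 2 were lower, against 0.881% and 1.79%. CDH11 was at 0.50 with Δ22 (adjusted p-value 0.0282) and at 0.38 with DAF-mut9 (0.0968). Of 25 epithelial genes 22 were tested, of which 6 were higher, 4 were lower and 12 were not called in endo-EF (median 0.22, against 0.0061 for all genes). CDH1, which encodes E-cadherin, had at most 7 counts in any library. DSP, which encodes desmoplakin of epithelial desmosomes, fell by 3.76 (SE 0.29, adjusted p-value 1.34e-09), whereas KRT8 (0.91 ± 0.28, 0.0116) and CLDN1 (0.74 ± 0.26, 0.0259) rose. Of 9 transcripts listed around miR-200 and miR-205, 1 had enough counts to be tested, MIR99AHG, which hosts neither, and no statement on miR-200 can be made from these counts.

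**Figure D4:**
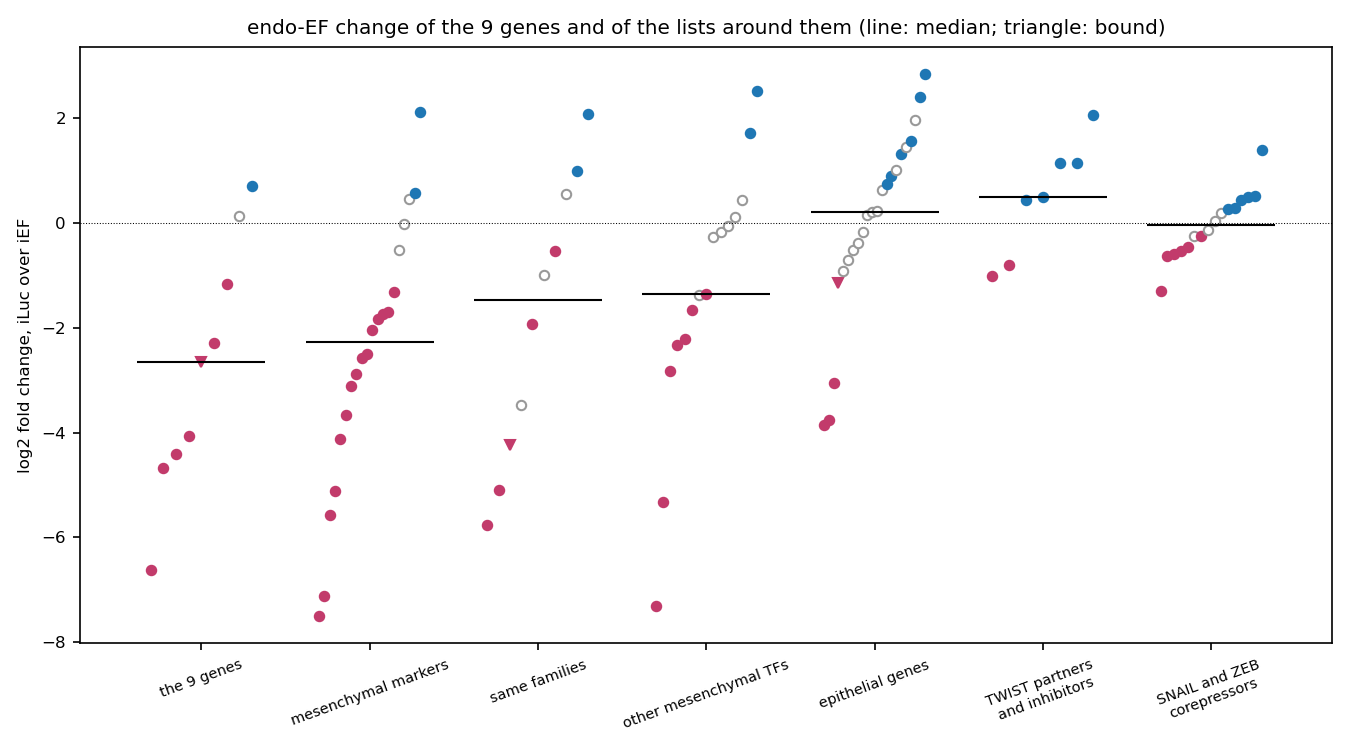
Log2 fold change of iLuc over iEF for the 9 genes and for 6 lists of related genes. Filled points passed the adjusted p-value of 0.05 (pink lower, blue higher), open points did not, and black lines are medians. Triangles are genes with 0 counts in iLuc, drawn with iLuc set at 3 counts. The median of the 9 genes lies at -2.65, which is the value set for TWIST2, and is -4.06 as fitted. It lies at -2.27 for mesenchymal markers and at 0.22 for epithelial genes.

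The members were compared with each other across the 21 libraries, after the mean of each replicate set was removed from log2 CPM. The libraries share groups, so these coefficients describe the pattern over groups and carry no test. PRRX1 and FOXC1 had a Pearson r of 0.981 (Spearman 0.942), PRRX1 and FOXC2 0.970 (0.857), and FOXC1 and FOXC2 0.964 (0.771). SNAI2 was near these genes at 0.887 with PRRX1 and 0.908 with FOXC1, and ZEB1 was at 0.837 with PRRX1. TWIST1 was negative with all of the other 8, from -0.79 with PRRX1 to -0.15 with ZEB2, and ZEB2 had an r of -0.06 with PRRX1. Among 10778 genes of at least 5 CPM, those most like PRRX1 were SLC14A1 (0.991), DCBLD2 (0.991) and S100A6 (0.990), and those most like FOXC1 were PHACTR2 (0.996), CDCP1 (0.994) and CDC42EP3 (0.994). SNAI2 was most like GNG2 (0.961), LINC00511 (0.960) and the mesenchymal cadherin CDH2 (0.956). ZEB1 was most like CUL4B (0.981), NTM (0.980) and KCTD9 (0.978). The coefficients were lower for TWIST1, with CENPV (0.936), THYN1 (0.930) and TMEM117 (0.924), and for ZEB2, with MYO10 (0.896), SHROOM4 (0.848) and the E protein gene TCF4 (0.826).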

How the data were processed

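Libraries of A673 cells were grouped by the shRNA, cDNA and replicate number in their labels. Reads had been aligned by the authors to hg19 with STAR (2.5.1b in the submitters' processing notes), and htseq-count (intersection-strict) gave the deposited raw count of each Ensembl gene. Which annotation release and strand setting were used is not given in the sources used here. A second table from the authors holds ComBat-adjusted counts, a signal not scaled for library size, and served only as an alternative. Their own comparisons (log2 fold changes, standard errors, adjusted p-values) were not used. The name mut9d in the column headers was taken to mean DAF-mut9, on which every DAF-mut9 value rests. The 5 summary lines of htseq-count held no values.

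The analysis used R 4.3.3 and edgeR 4.0.16. Genes averaging fewer than 1 count a library were dropped, TMM factors were applied, and 1 quasi-likelihood fit covered the 21 libraries with group and replicate set as terms, since the authors adjusted for the set. The threshold was 0.05 after Benjamini-Hochberg correction over all genes tested. Levels are CPM, and correlations used log2 CPM with a prior count of 2. The study describes replicate KD/rescue experiments, with 3 libraries per group. The p-values rest on the spread between replicate libraries, estimated for each gene over all 21 libraries. A library outside a comparison can therefore move its call. Deviations from group means correlated at a median of 0.161 between same-numbered libraries (43 of 63 pairs above 0.1) and of -0.0953 between others. All 21 pairs of replicates differed by more than counting noise. Totals of 32.9 to 46.2 M counts a library set the counting precision. Floors and 95% exact intervals cover counting error only, and a gene with 0 counts in a group was bounded at 3 counts over that group. Such bounds leave out the counting error of the group compared with it.

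The 9 genes and all lists were chosen with earlier results of these data known. Named besides the members and FLI1 were the 3 genes most correlated with each member that averaged 5 CPM or more and, per list, at most 3 called genes in each direction with the largest change in endo-EF and a mean of at least 5 CPM. Every gene was named for lists of 5 genes or fewer. A gene that this rule names is not reported here. CD99 and the other Ewing sarcoma genes, CDH1, MIR99AHG and transcripts near or overlapping members were named after their values were seen. On counts simulated for mut9 against iEF (30081 genes), 57% of 2-fold and 96% of 4-fold changes were recovered and 2.55% of calls were false. The simulation changed 200 genes, none of low count, used a spread fitted as a trend over level and held no replicate-set effect. These rates describe that setting and not the calls on the real counts. Alternatives were DESeq2 1.42.0, no replicate block, RLE normalization, other count filters, a 2-fold minimum, only the compared groups, the ComBat-adjusted values (limma 3.58.1, pseudocount 0.5) and leaving out each library. Places of genes come from a GENCODE annotation lifted to GRCh37 and promoter windows from RefSeq (GRCh38.p14).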

Additional observations from a re-analysis of the deposited data

Results flagged for a closer look

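The effect of the tyrosine substitutions differed between the full-length and the shortened fusion for 2 of the 9 genes by the test of the interaction, where 0.504% of all genes had a positive and 2.82% a negative interaction. The tyrosines changed are not the same set in both forms, so length and substitutions cannot be told apart. For SNAI1 the interaction was -1.06 on the log2 scale (SE 0.26, adjusted p-value 0.0262, negative in 3 of 3 replicate sets), from 0.72 in DAF over WT-EF and -0.34 in DAF-mut9 over mut9. For TWIST1 it was 0.98 (SE 0.24, adjusted p-value 0.0259, positive in 3 of 3 sets), from -1.001 and -0.02. Relative to iEF, TWIST1 was raised with WT-EF (0.69, adjusted p-value 0.00376) and was not called with mut9 (-0.14, 0.683). FLI1, as a readout of the constructs and the residual fusion, stood at 24.5 CPM with WT-EF, 37.02 with DAF, 30.7 with mut9 and 36.3 with DAF-mut9, with an interaction of -0.36 (adjusted p-value 0.395), and its part in either result was not tested. The SNAI1 call was lost in 9 and the TWIST1 call in 6 of the 21 fits that each left out 1 library, and the number of the 9 genes called ranged from 0 to 2 in these fits. Single outlying libraries were not tested in groups of 3.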

How the results depend on the processing

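The number of the 9 genes called was the same without the replicate block in all 13 comparisons, and the block changed no call. The block was kept because the authors adjusted for the replicate set, although same-numbered libraries did not deviate together in every pair (43 of 63 correlations above 0.1, lowest -0.192). The counts moved by more than 1.5 times as follows. With a fold change of at least 2 as well, 0 genes were called in DAF over iEF, 2 in mut9 over WT-EF, 1 in mut9 over DAF and 1 for the interaction. Without a low-count filter 5 were called in DAF over iEF, 1 in Δ22 over iEF and 4 in DAF over Δ22. With only the compared groups 1 was called in DAF over iEF and 4 in DAF over Δ22. Leaving out each library gave 8 to 8 genes in endo-EF, 6 to 8 with WT-EF, 4 to 6 with mut9, 1 to 2 with DAF, 0 to 0 with DAF-mut9 and 0 to 0 with Δ22 over iEF. It gave 5 to 8 for WT-EF over iLuc, 4 to 5 for mut9 over WT-EF, 6 to 7 for DAF over WT-EF, 3 to 5 for DAF-mut9 over mut9, 2 to 4 for mut9 over DAF, 1 to 1 for DAF over Δ22 and 0 to 2 for the interaction. FLI1 in endo-EF stayed between 1.60 and 1.86. The cause of these moves was not tested.

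Log2 fold changes that turned direction were all of genes not called. On the ComBat-adjusted values they were 0.0095 for TWIST1 (WT-EF over iLuc), -0.019 for SNAI1 and -0.037 for ZEB2 (mut9 over WT-EF) and 0.032 for the ZEB1 interaction. TWIST2 (DAF over iEF) was at -0.016 without the block. TWIST1 (DAF-mut9 over mut9) was at 0.0044 with RLE normalization, 0.020 with the filterByExpr filter, 0.0043 with DESeq2 and 0.0065 with only the compared groups. Leaving out each library gave these ranges over iEF: -0.25 to 0.25 for TWIST2 with DAF, -0.19 to 0.084 for SNAI1 and -0.59 to 0.17 for SNAI2 with DAF-mut9, and -0.084 to 0.38 for ZEB1, -0.0024 to 0.21 for ZEB2, -0.13 to 0.20 for FOXC1 and -0.52 to 0.017 for FOXC2 with Δ22. In WT-EF over iLuc TWIST1 ran from -0.13 to 0.082. In mut9 over WT-EF SNAI1 ran from -0.011 to 0.17, SNAI2 from -0.29 to 0.019, TWIST2 from -0.25 to 0.75 and ZEB2 from -0.054 to 0.081. ZEB2 ran from -0.14 to 0.032 in DAF over WT-EF, and in DAF-mut9 over mut9 TWIST1 ran from -0.14 to 0.21 and TWIST2 from -0.14 to 0.86. TWIST1 (-0.061 to 0.33) and ZEB2 (-0.00064 to 0.17) turned in mut9 over DAF, and SNAI2 (-0.59 to 0.011) and TWIST2 (-0.69 to 0.011) in DAF over Δ22.

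Counts of TWIST2 and FOXC2 limit what can be said of them, and 3 libraries a group limit small differences.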

Other observations

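The neighbourhood of the FOXC2 gene on chromosome 16 holds other transcripts that were low in iLuc. FOXL1, the next of these beyond FOXC2, had mean levels of 18.1 CPM in iEF, 0.519 in iLuc, 1.96 with WT-EF, 4.47 with mut9 and 8.89 with DAF. FOXF1, upstream of FOXC2, had a mean of 0.610 CPM in iEF and at most 1 count in any iLuc library. FOXC2-AS1 and FENDRR had 0 counts in iLuc against 33 and 10 counts over the iEF libraries. With iLuc set to its bound, as for TWIST2, their log2 fold changes in endo-EF were -3.61 and -1.89. These values leave out the counting error of iEF, so they are not upper limits. Near FOXC1 on chromosome 6, FOXQ1 had 0 counts in iLuc and 51 in iEF (log2 fold change -4.24 at the same setting). FOXF2, which lies between FOXQ1 and FOXC1, was not called (-0.997, adjusted p-value 0.180, edgeR's quasi-likelihood test). HDAC9, which lies next to TWIST1 on chromosome 7, was lower in endo-EF (-1.41, 0.00137), while TWIST1 was higher. ZEB2-AS1 rose in endo-EF (0.94, 0.0296) and with WT-EF (1.44, 0.00214).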
